A study of Mus musculus with 3 samples.

Results

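Genes of the distal lung secretions, 10 of the 31054 features in the files, were followed in 3 mouse lung single-cell libraries: the surfactant protein genes Sftpc, Sftpb, Sftpa1 and Sftpd, the genes Abca3, Lamp3, Slc34a2 and Napsa of the cells that make surfactant, and the secretoglobin genes Scgb1a1 and Scgb3a2. They were found by symbol, and their levels were read in 6 kinds of cells defined by counts of transcripts (unique molecular identifiers, UMIs), given in CPM, a gene's UMIs divided by all UMIs of those cells on the usual scale. The first library is lung of wild-type mice that were not irradiated, the control, and the second is lung of wild-type mice after irradiation. The third is lung of mice with a conditional knockout that were both irradiated and given a drug, called the knockout library below. The sources used here give neither the deleted gene, the Cre driver, the drug, the radiation dose and time, the age and strain of the mice nor how many were pooled. The knockout and the drug occur only together and cannot be told apart, and each group is 1 library, so no difference between groups could be tested. Every interval below is an exact 95% interval (Poisson for a level, binomial for a share) that covers counting error only.

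Surfactant is the film of lipid and protein that keeps alveoli open at low volume. Alveolar type 2 cells store it in lamellar bodies, lysosome-related organelles in which ABCA3 loads phospholipid and the small hydrophobic proteins SP-B and SP-C mature from larger precursors. SP-A and SP-D, encoded by Sftpa1 and Sftpd, are collectins that bind microbes and surfactant lipid. Club cells of the bronchioles secrete the secretoglobins SCGB1A1 and SCGB3A2 and are also known to make SP-A, SP-B and SP-D.

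The 250 bases before the start of transcription are shown for the 2 of these surfactant protein genes that the promoter table held, to let a reader see the motif of a shared regulator in them. RefSeq promoters on GRCm38.p6 were matched for 5 of the 10 genes, and the capitals mark CTCAAG, the core bound by NKX2-1, a transcription factor of lung epithelium.
Sftpb, chr6:72304360-72304609, + strand: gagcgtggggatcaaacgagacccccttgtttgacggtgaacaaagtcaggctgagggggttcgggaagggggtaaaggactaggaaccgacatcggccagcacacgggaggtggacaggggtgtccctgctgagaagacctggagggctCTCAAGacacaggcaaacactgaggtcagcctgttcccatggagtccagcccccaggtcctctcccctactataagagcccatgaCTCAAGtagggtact
Sftpa1, chr14:41131538-41131787, + strand: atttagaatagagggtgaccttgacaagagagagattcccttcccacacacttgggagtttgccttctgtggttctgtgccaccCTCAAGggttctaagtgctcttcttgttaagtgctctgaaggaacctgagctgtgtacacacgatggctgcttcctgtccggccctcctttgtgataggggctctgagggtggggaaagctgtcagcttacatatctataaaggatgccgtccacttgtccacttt
The Sftpb window held 2 matches, 100 and 15 bases before the start, and the Sftpa1 window 1 match, 166 bases before it. On either strand, CTCAAG occurred in 13.3% of the 32851 promoter windows of this length, so a match is a description and not a binding site. The windows of Abca3, Lamp3 and Slc34a2 held none, and that of Slc34a2 lies inside the gene as GENCODE spans it. The starts used for the windows are those of RefSeq. The windows of Abca3, Lamp3 and Sftpa1 therefore run in part into the genes as GENCODE spans them.

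Of the genes, 9 are given here with their positions on GRCm38: they lie on chromosome 14 (Sftpc, 70520949 to 70524081; Sftpa1, 41131782 to 41136452; Sftpd, 41172214 to 41185149), chromosome 6 (Sftpb, 72304610 to 72314371), chromosome 17 (Abca3, 24351950 to 24410201), chromosome 16 (Lamp3, 19653378 to 19706375), chromosome 5 (Slc34a2, 53038081 to 53071664), chromosome 7 (Napsa, 44572380 to 44586862) and chromosome 19 (Scgb1a1, 9083636 to 9087958). Each count covers a whole gene.

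A cell counted as type 2 with at least 100 Sftpc UMIs, at least 1 UMI of Lamp3 or Abca3 and no UMI of the leukocyte gene Ptprc. It counted as club with at least 100 Scgb1a1 and 5 Cyp2f2 UMIs (Cyp2f2 is a cytochrome P450 of club cells), and as an Ager cell with at least 5 UMIs of Ager, a receptor gene most abundant in alveolar type 1 cells. T cells needed 2 UMIs of Cd3d, Cd3e and Cd3g together, B cells 2 of Cd79a and fibroblasts 2 of Col1a1 and Col1a2. The last 3 kinds were included to measure RNA of the 10 genes that is free in the cell suspension. Sftpc, Lamp3 and Abca3 in type 2 cells and Scgb1a1 in club cells are therefore fixed in part by these rules, and their levels there are a description.

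After filtering, the non-irradiated, irradiated wild-type and knockout libraries held 13091, 5805 and 9886 cells with a median of 4899, 5706 and 6070.5 UMIs. Of these cells 278 (2.12%, interval 1.88 to 2.39%), 21 (0.362%, 0.224 to 0.552%) and 32 (0.324%, 0.222 to 0.457%) were type 2, and 65, 27 and 27 were club. Between 18 and 32 barcodes were shared by each pair of libraries. The irradiated wild-type library held 1595 cells with a male pattern of Xist and Y-linked genes beside 3005 with a female pattern, whereas the other libraries held 1 and 27 male-type cells, so the sex of the cells differs with the library.

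The type 2 rule was checked against markers. Lyz2, a lysozyme gene of type 2 cells and macrophages, was found in 278 of 278, 21 of 21 and 32 of 32 type 2 cells, and Cxcl15, a chemokine gene of type 2 cells, in 99.3%, 95.2% and 96.9% of them. Since free RNA can give single UMIs, the level of Lyz2 says more. It was 27485, 16960 and 16222 CPM in type 2 cells, against 560, 31.6 and 347 CPM in T cells. The 5 leukocyte markers together amounted to 39.6, 24.1 and 37.9 CPM, and the 3 basal cell markers were at 0. Fibroblast markers together stood at 1085, 69.3 and 540 CPM in type 2 cells and endothelial markers at 578, 72.3 and 152 CPM, or at 200, 86.8 and 255 CPM and at 419, 95.1 and 165 CPM in the unmixed cells described below. Their part in the results was not tested. Of the 245, 37 and 53 Ager cells, 192, 17 and 26 also met the type 2 rule, so they are called by their rule and not type 1 cells. The highest Sftpc count under the rule was 66, 49 and 48 UMIs in the 3 libraries, and the lowest count over it 104, 128 and 189 UMIs.

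**Figure D1:**
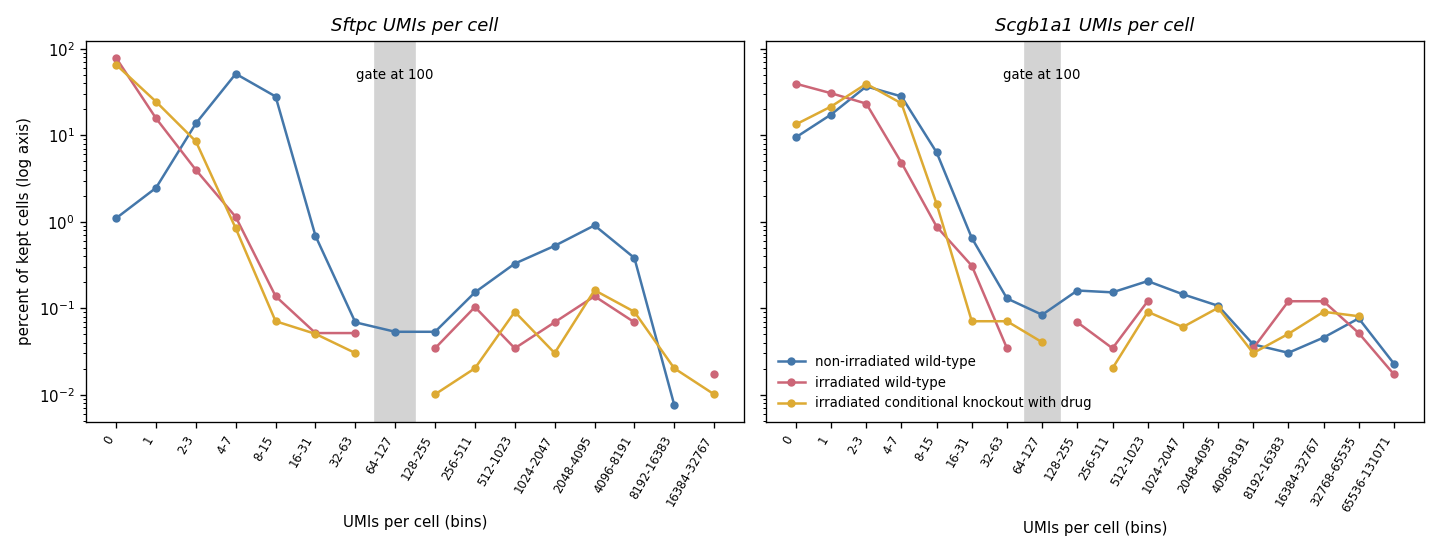
Share of kept cells (percent, log axis) by the number of Sftpc (left) or Scgb1a1 (right) UMIs in the cell, in doubling bins, for the 3 libraries; the grey band is the bin that holds the rule of 100 UMIs. The main peak of Sftpc lies at 4 to 7 UMIs in the non-irradiated library and at 0 in both irradiated libraries, while all 3 libraries also hold cells above the band.

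Some cells met 2 rules, and 1 of them carried nearly all secretoglobin UMIs of a type 2 result. In the irradiated wild-type library a single cell of 140845 UMIs met the type 2, club and Ager rules. It held 77956 Scgb1a1 UMIs, 1731 of Sftpc and 1319 of Sftpb but only 17 of Sftpa1 and 4 of Napsa, and it was not among the cells marked as likely doublets. The deepest type 2 cell of that library held 157573 UMIs, 23.7% of all UMIs of its 21 type 2 cells. Results are therefore also given for unmixed cells, a set chosen after the values were seen, in which type 2 and club cells were taken out of the other kinds, cells of both rules were left out, and type 2, club and Ager cells meeting a T, B or fibroblast rule were left out. This left 226, 17 and 29 type 2 cells and 57, 25 and 25 club cells.

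Among the surfactant proteins, Sftpc stood at 172020 CPM (interval 171615 to 172426) in type 2 cells of the non-irradiated library. The irradiated wild-type level was 112636 CPM (111831 to 113446), and the knockout level 148300 CPM (147390 to 149215). Sftpc encodes SP-C, a small hydrophobic protein of type 2 cells. Its lowest, median and highest values over cells were 10316, 171383 and 342122 CPM in the non-irradiated library, 8727, 131002 and 251221 in the irradiated wild-type, and 21944, 170130 and 259026 in the knockout library. The cells of the 3 libraries overlapped over most of their range. In unmixed cells the levels were 189449, 139179 and 149719 CPM.

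Sftpb, which encodes SP-B, a protein needed for breathing after birth, measured 7560, 6961 and 5588 CPM in type 2 cells. Its median over cells was 7749, 7077 and 6196 CPM, and the single highest cell, at 27923 CPM, was an irradiated wild-type cell. Sftpa1 measured 22117, 12535 and 18884 CPM, with medians over cells of 21328, 16559 and 18467 CPM. In irradiated wild-type type 2 cells 39.0% of the Sftpa1 UMIs and 36.5% of the Sftpc UMIs came from 1 cell.

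Sftpd was higher in the knockout library than in the irradiated wild-type library by the 2-fold rule given below. Its level in type 2 cells was 4301 CPM (4237 to 4366) without irradiation, 2547 CPM (2427 to 2672) after irradiation of wild-type mice and 6750 CPM (6557 to 6947) in the knockout library. The lowest, median and highest cells were at 0, 4051 and 16162 CPM, at 675, 3653 and 10043 CPM, and at 1715, 6020 and 15048 CPM. Most knockout cells thus lay above the median of either other library, and the ranges overlapped. The knockout level was 2.65 times that of irradiated wild-type cells (counting interval 2.51 to 2.80), and 2.18 times (2.05 to 2.32) in unmixed cells. Where each cell was given the same weight the log2 ratio was 0.86 in place of 1.40, which is under 2-fold. In female-type cells alone, summed, the log2 ratio was 1.53.

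Genes of lamellar bodies, transport and protein processing follow, none of which was 2-fold apart by that rule between the wild-type libraries or between the irradiated libraries. Abca3, the phospholipid transporter, measured 597, 429 and 352 CPM in type 2 cells, with medians over cells of 611, 589 and 340 CPM. Lamp3, a lysosomal membrane protein gene, measured 1005, 700 and 646 CPM with medians of 969, 977 and 691 CPM. Slc34a2, the phosphate transporter that takes up phosphate from surfactant breakdown, measured 3052, 1822 and 1785 CPM with medians of 3045, 2943 and 1845 CPM. For these 3 genes the median cell of the irradiated wild-type library lay close to that of the non-irradiated library and the median cell of the knockout library was lower. Napsa, an aspartic protease that processes SP-B, measured 2041, 1552 and 2205 CPM with medians of 2013, 1664 and 2119 CPM.

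**Figure D2:**
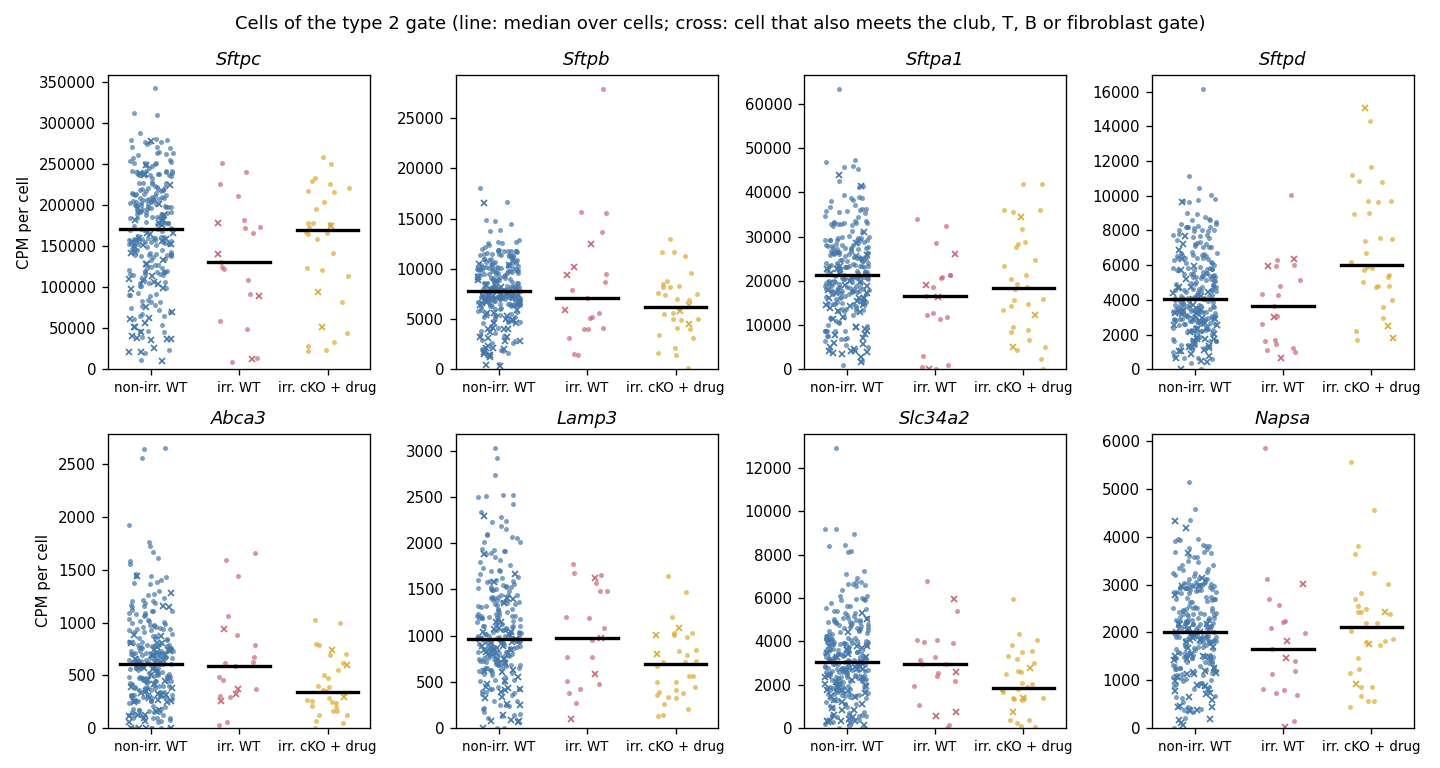
CPM per cell of the 8 surfactant genes in the 278, 21 and 32 cells of the type 2 rule, one point per cell, with the median as a line and crosses for cells that also met the club, T, B or fibroblast rule. Sftpd has its highest median in the knockout library (6020 CPM), while Abca3, Lamp3 and Slc34a2 have their lowest medians there.

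A gene was counted as apart between libraries if its ratio with 5 CPM added was at least 2-fold and the higher library held at least 30 UMIs; 10 of 10 genes reached 30 UMIs in type 2 cells in both comparisons. Scaling by the median of ratios in place of all UMIs subtracts 0.11 and 0.15 from the log2 ratios of type 2 cells, 0.51 and -0.44 from those of club, 0.34 and 0.07 from those of Ager and 0.11 and -0.12 from those of T cells, for irradiated over non-irradiated wild-type and for knockout over irradiated wild-type. Between irradiated and non-irradiated wild-type type 2 cells, 0 of the 10 were lower, beside 7.16% of the 8623 genes measured, and 2 were higher, beside 1.4%. The 8 surfactant genes all lay under a ratio of 1, with log2 ratios from -0.82 (Sftpa1) to -0.12 (Sftpb), none past 2-fold. With cells weighed equally Sftpb (8471 against 7810 CPM) and Abca3 (657 against 653 CPM) lay above a ratio of 1 instead. The 2 higher genes were Scgb1a1, at 988 CPM in non-irradiated and 117494 in irradiated cells, and Scgb3a2, at 10.7 and 691 CPM. The cell of both rules held 99.9% of those Scgb1a1 UMIs and 100% of the Scgb3a2 UMIs. In unmixed cells Scgb1a1 was lower instead, at 493 against 176 CPM, the 1 gene of 9 to be lower, beside 3.84% of 7289 genes, and 0 were higher, beside 2.91%. There Scgb3a2 measured 8.26 CPM against 0 UMIs, which allows up to 6.20 CPM (3 UMIs).

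In knockout against irradiated wild-type type 2 cells, 2 of the 10 genes were lower, beside 1.93% of 3206 genes, and 1 was higher, beside 5.93%. The higher gene was Sftpd. The lower genes were Scgb1a1, at 255 CPM against 117494, and Scgb3a2, at 7.29 against 691 CPM, which again rested on the cell of both rules. In unmixed cells 0 of 9 genes were lower, beside 3.64% of 2776 genes, and 1 was higher, Sftpd, beside 3.89%. This comparison and the previous one share the irradiated wild-type library.

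**Figure D3:**
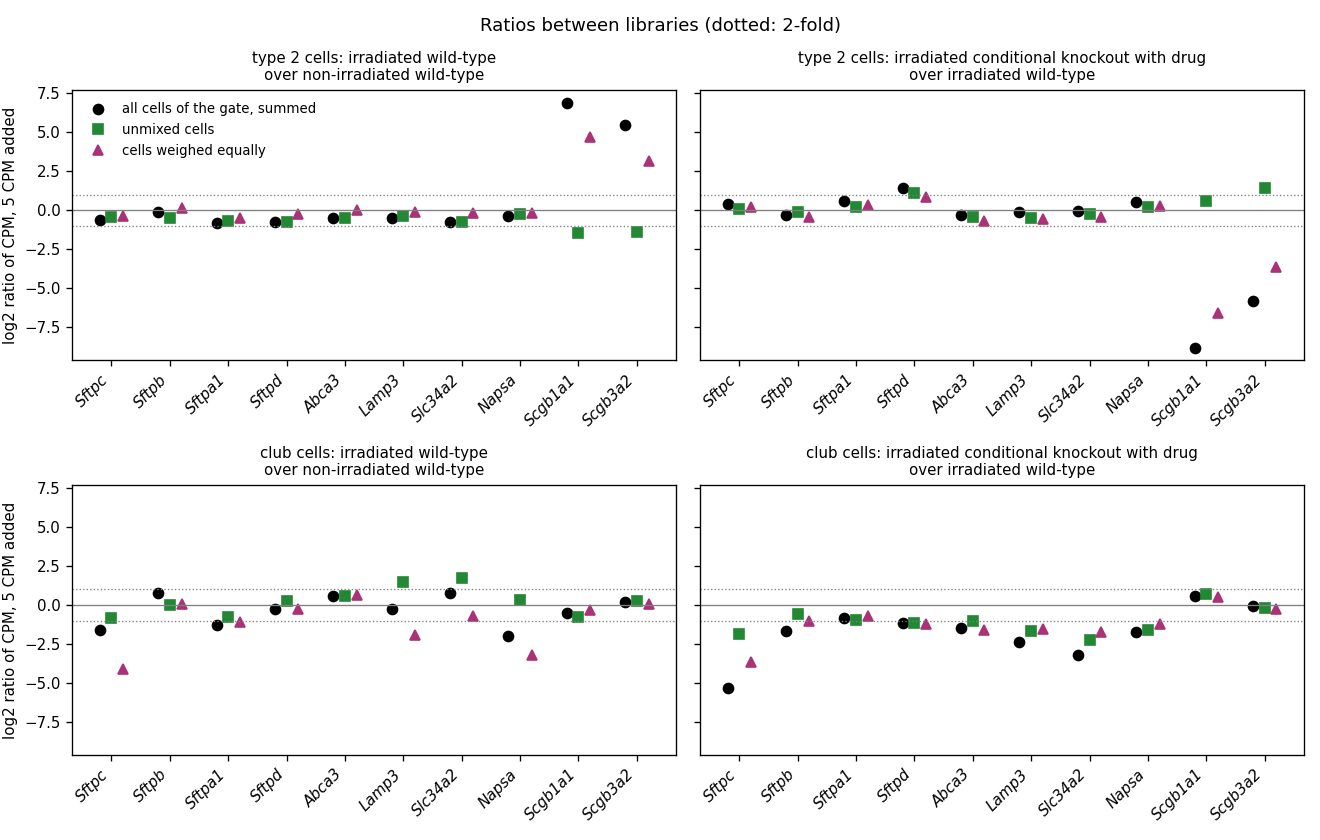
Log2 ratio of CPM with 5 CPM added for each gene in type 2 cells (top) and club cells (bottom), for irradiated over non-irradiated wild-type (left) and knockout over irradiated wild-type (right); circles use all cells of the rule summed, squares unmixed cells, triangles all cells weighed equally, and dotted lines mark 2-fold. The Scgb1a1 and Scgb3a2 points in type 2 cells change sign between circles and squares, whereas among the 8 surfactant genes in type 2 cells only Sftpd in the right panel passes a dotted line.

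In club cells the secretoglobins dominated the transcriptome. Scgb1a1, which encodes a small anti-inflammatory secreted protein, measured 544049, 381624 and 567849 CPM in the non-irradiated, irradiated wild-type and knockout libraries. Its median over cells was 634021, 461385 and 695608 CPM. Scgb3a2, a related secreted protein gene that was not part of the rule, measured 8852 (8721 to 8985), 10027 (9848 to 10209) and 9457 (9271 to 9646) CPM. Its medians were 8499, 9754 and 7901 CPM, and no pair of libraries was 2-fold apart. Since CPM is a share, the level of Scgb1a1 in club cells bears on the CPM of every other gene there.

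Club cells also held collectin and Sftpb transcripts in other proportions than type 2 cells. In unmixed club cells Sftpa1 measured 2169 (2099 to 2241), 1268 (1199 to 1340) and 639 (590 to 691) CPM, Sftpb 989, 975 and 647 CPM, and Sftpd 611, 731 and 334 CPM. Sftpc was at 254, 142 and 35.7 CPM in the same cells. For every 100 Sftpc UMIs, unmixed club cells thus carried 855, 892 and 1789 Sftpa1 UMIs, against 13.0, 11.1 and 12.1 in unmixed type 2 cells. The values for Sftpd were 241, 515 and 934 in club against 2.54, 2.09 and 4.23 in type 2 cells. In the non-irradiated and knockout libraries the Sftpc level of these club cells was below that of all T cells summed. The part of free RNA in these proportions was not tested. Lamp3 had 1, 11 and 0 UMIs in unmixed club cells, where 0 allows up to 3.06 CPM. Sftpa1 was found in 93.0%, 72.0% and 96.0% of unmixed club cells, at median depths of 8726, 28308 and 42090 UMIs. In unmixed T cells it was found in 53.4%, 4.56% and 5.82%, at median depths of 6818.5, 6614 and 6908 UMIs. With each cell reduced to 1000 UMIs, the club shares were 75.0%, 32.0% and 32.0%, of 56, 25 and 25 cells. The T cell shares were then 11.2%, 0.786% and 0.785%.

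Of the 10 genes in club cells, 3 were lower in irradiated than in non-irradiated wild-type cells, beside 2.11% of 4214 genes, and 0 were higher, beside 11.2%. The 3 were Sftpc at 4818 against 1581 CPM, Sftpa1 at 2698 against 1128 CPM and Napsa at 71.6 against 14.3 CPM. Of the Sftpc UMIs, 36.9% and 92.3% came from the top cell of each library. In unmixed cells 0 of the 8 genes with enough UMIs were lower, beside 1.39% of 3605 genes, and 1 was higher, beside 22.1%, which is a smaller share of the members than of all genes. That gene was Slc34a2, at 22.2 against 84.5 CPM, with 77.6% of the irradiated UMIs in 1 cell. The median log2 ratio of all genes measured was 0.41.

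Knockout against irradiated wild-type club cells had 5 genes lower, beside 22.0% of 3485 genes, and 0 higher, beside 0.746%. Only 8 of the 10 reached 30 UMIs here; Lamp3 and Napsa did not. The 5 were Sftpc, Sftpb, Sftpd, Abca3 and Slc34a2. In unmixed cells the 4 lower genes were the same without Sftpb, beside 970 of 3228 genes (30%) lower, and 0 were higher, beside 0.743%. The cell of 3 rules held 92.3% of the irradiated wild-type Sftpc UMIs and 56.7% of the Sftpb UMIs, and without mixed cells the log2 ratios went from -5.29 to -1.85 for Sftpc and from -1.63 to -0.59 for Sftpb. The part of free RNA in the Sftpc of these club cells was not tested. Sftpd measured 317 CPM in knockout against 711 CPM in irradiated wild-type cells, a log2 ratio of -1.15, opposite in direction to type 2 cells. Over 18 other settings this ratio ran from -2.55 to -0.20 and was past 2-fold in 13, and median-of-ratios scaling gave -0.72. The median log2 ratio of all genes was -0.60. Lyz2 stood at 17.3 CPM in knockout and 2389 CPM in irradiated wild-type club cells, and the summed basal cell markers at 23.1 and 159 CPM. Their part in these differences was not tested.

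**Figure D4:**
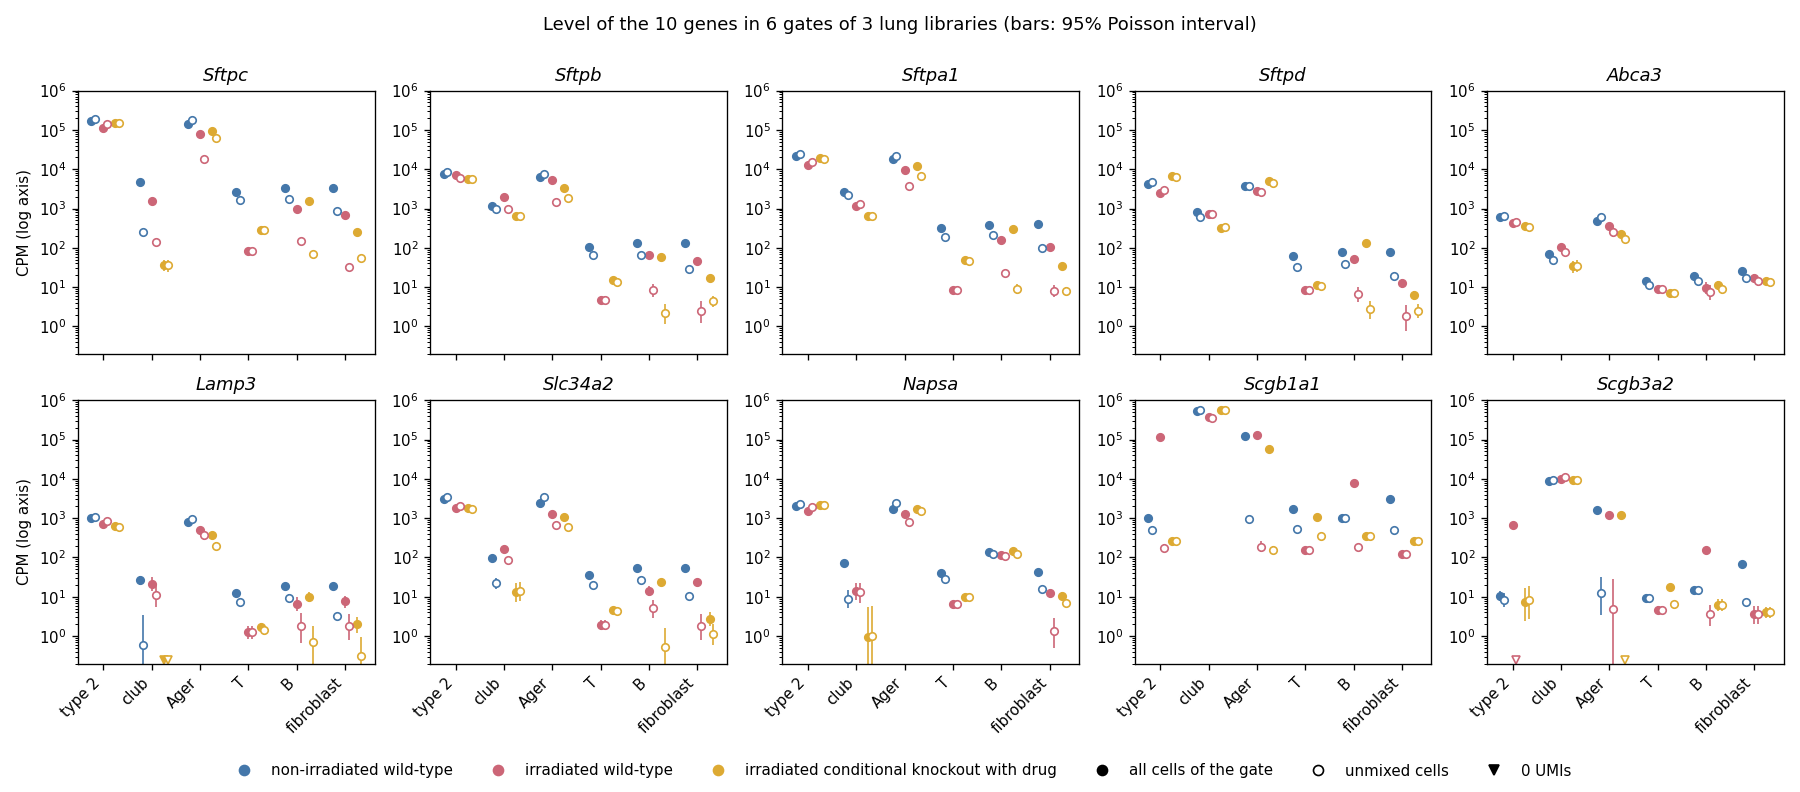
Level (CPM, log axis) of each gene in 6 kinds of cells; colours are libraries, filled circles all cells of the rule, open circles unmixed cells, triangles 0 UMIs, and bars 95% Poisson intervals. Scgb1a1 and Scgb3a2 are highest in club cells, the 8 surfactant genes in type 2 and Ager cells, and Napsa in B cells lies at 139, 119 and 145 CPM with all cells of the rule.

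Of the Ager cells 78.4%, 45.9% and 49.1% were also type 2 cells. Sftpc measured 139976, 78324 and 95455 CPM in them and Sftpd 3666, 2807 and 5163 CPM. Between irradiated and non-irradiated wild-type cells 0 of 10 genes were lower, beside 5.72% of 8813 genes, and 0 were higher, beside 3.04%. For knockout against irradiated wild-type cells 1 was lower, Scgb1a1 at 58744 against 132130 CPM, beside 1.34% of 5144 genes, and 0 were higher, beside 3.44%. The cell of 3 rules held 63.8% of those irradiated wild-type Scgb1a1 UMIs, and in unmixed Ager cells the levels were 158 and 190 CPM, not 2-fold apart. In unmixed Ager cells 8 of the 9 genes with enough UMIs were lower in irradiated than non-irradiated wild-type cells, beside 11.4% of 1452 genes, and 0 were higher, beside 28.2%. The 33, 15 and 21 cells left had a median Sftpc of 125448, 148 and 91.8 CPM. A cell with at least 100 Sftpc UMIs can stay in this set if it holds a Ptprc UMI or no UMI of Lamp3 or Abca3. By these medians the non-irradiated set was rich in Sftpc and the irradiated sets were not, so unlike cells are compared. Endothelial markers together stood at 1306, 64.9 and 156 CPM in the unmixed Ager cells. The part of these markers and of the unlike cells in the differences was not tested.

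A set chosen after these values were seen, Ager cells under 100 UMIs of both Sftpc and Scgb1a1, held 16, 13 and 17 cells. In the non-irradiated library these cells had a median of 822 UMIs, and Sftpd and Napsa were each found in 1 of 16. In the irradiated wild-type library, at a median of 9639 UMIs, Sftpd was found in 9 of 13 cells at a median of 478 CPM and Napsa in 11 of 13 at a median of 478 CPM. In the knockout library, at a median of 20557 UMIs, Sftpd was found in 13 of 17 cells at a median of 1567 CPM and Napsa in 13 of 17 at 445 CPM. Aqp5, a water channel gene of type 1 cells, was found in 10, 10 and 17 of these cells, and Krt8, a keratin gene of simple epithelium, in 4, 12 and 15. Sftpc and Scgb1a1 are low in these cells by the way they were chosen. Depth differs with the library here and its part in the shares was not tested.

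T cells are not known to make surfactant proteins and were used to measure the free RNA. Sftpc was found in 98.9% of T cells of the non-irradiated library at a median of 840 CPM, and in 21.3% and 33.9% of those of the irradiated wild-type and knockout libraries at a median of 0. After each unmixed T cell was reduced to 1000 UMIs the shares were 57.5%, 4.4% and 6.5%. The Scgb1a1 background followed another order: 91.6%, 61.5% and 87.3% of T cells held a UMI, with medians of 368, 127 and 287 CPM. Over whole libraries Sftpc measured 10371, 2068 and 2006 CPM and Scgb1a1 13906, 10730 and 8980 CPM.

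Of the 10 genes in T cells, 8 were lower in irradiated than in non-irradiated wild-type cells, beside 5.2% of 11915 genes, and 0 were higher, beside 0.697%. The 2 not apart were Abca3, at 14.4 and 8.73 CPM, and Scgb3a2, at 9.14 and 4.74 CPM. In knockout against irradiated wild-type T cells 0 were lower, beside 0.152% of 12522 genes, and 5 were higher, beside 0.287%: Sftpc at 290 against 84.2 CPM, Sftpb, Sftpa1, Scgb1a1 and Scgb3a2. Of the knockout Scgb1a1 UMIs 62.9% came from 1 cell, and unmixed T cells left 3 genes higher, beside 0.272% of 12507 genes, and 0 lower, beside 0.152%. For irradiated over non-irradiated wild-type, unmixed T cells had 7 genes lower, beside 5.04% of 11878 genes, and 0 higher, beside 0.69%. T cells that also met the Ager rule stay in this set. Outside the type 2, club and Ager rules, 5096 of 5103 knockout T cells held 5173 Sftpc UMIs, and 2672 of 2674 irradiated wild-type T cells held 944. All T cells of these libraries held 42099817 and 21522649 UMIs. The few T cells of those rules thus gave a large part of the 290 and 84.2 CPM. Sftpc stayed higher by the rule in 18 of 18 other settings, and the part of these cells in the other genes was not tested.

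In the non-irradiated library T cells held several of the surfactant genes in proportions near those of type 2 cells. For every 100 Sftpc UMIs, unmixed T cells of that library carried 3.88 Sftpb, 11.1 Sftpa1, 1.99 Sftpd and 1.22 Slc34a2 UMIs, and unmixed type 2 cells 4.45, 13.0, 2.54 and 1.79. Abca3 and Napsa lay further off, at 0.702 and 1.69 in T cells against 0.342 and 1.19 in type 2 cells. Scgb1a1 had 7730 UMIs beside 23785 of Sftpc in unmixed T cells, and 1493 beside 573572 in unmixed type 2 cells. Unmixed T cells still include cells that met the Ager rule. The 1850 T cells of that library outside the type 2, club and Ager rules held 11917 Sftpc UMIs. Beside these they held 414 Sftpb, 1511 Sftpa1, 300 Sftpd, 172 Slc34a2 and 7686 Scgb1a1 UMIs. The Sftpc, Sftpb, Sftpa1, Sftpd, Slc34a2 and Scgb1a1 UMIs in these 1850 cells are read as background and not as expression.

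Napsa in B cells departed from that make-up. Unmixed B cells held 120 (112 to 128), 109 (98.5 to 121) and 125 (116 to 135) CPM of Napsa, near the same level in all 3 libraries, while Sftpc in the same cells was 1785, 145 and 69.6 CPM. A Napsa UMI was found in 41.7%, 40.1% and 47.8% of unmixed B cells and in 8.74%, 2.39% and 3.22% of unmixed T cells, at median depths of 4741.5, 4998.5 and 6049 UMIs in B and 6818.5, 6614 and 6908 UMIs in T cells. Reduced to 1000 UMIs the B cell shares were 10.9%, 9.2% and 12.9% and the T cell shares 1.4%, 0.3% and 0.5%. The Napsa gene (chromosome 7, 44572380 to 44586862, + strand, GRCm38) overlaps Gm15396 on the opposite strand, and how the counting treated strand is not given in the sources used here. For every 100 Sftpc UMIs B cells carried 6.71, 75.2 and 180 Napsa UMIs, against 1.19, 1.39 and 1.49 in type 2 cells. Cells that met none of the rules held 15.7%, 41.2% and 31.8% of the Napsa UMIs of kept cells. These were 2007, 1197 and 1585 UMIs in 5825, 2137 and 3135 cells. Type 2 cells held 64.1%, 35.5% and 30.3%. B cells outside the type 2, club, Ager and T rules held 878, 353 and 636 UMIs in 1368, 541 and 695 cells. Which kinds of cells outside the rules held Napsa was not tested.

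Abca3 outside epithelium showed a like pattern at a low level. Unmixed fibroblasts held 16.8, 14.0 and 13.3 CPM, with a UMI in 11.7%, 13.0% and 11.4% of cells, while their Sftpc level was 842, 31.6 and 55.4 CPM. Unmixed T cells held 11.6, 8.73 and 7.07 CPM of Abca3, with no cell of the irradiated wild-type library giving more than 1.06% of the UMIs. Abca3 overlaps D330041H03Rik and Gm25618 on the opposite strand.

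**Figure D5:**
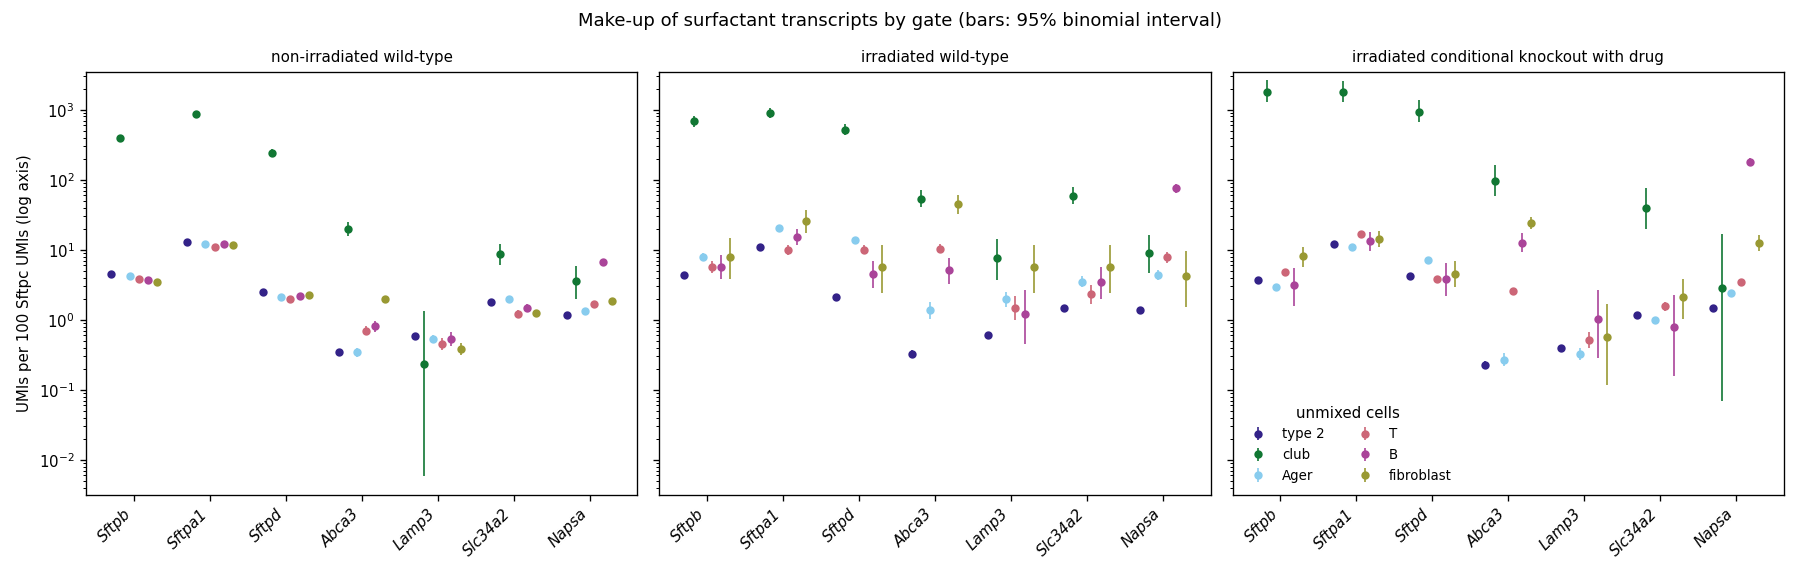
UMIs of 7 genes for every 100 Sftpc UMIs (log axis) in unmixed cells of each kind, one panel per library, with 95% binomial intervals. In the non-irradiated library the T, B and fibroblast points lie near the type 2 points for Sftpb, Sftpa1 and Sftpd, the club points lie far above them, and the B cell point stands out for Napsa in all 3 panels.

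Among all genes outside the 10, the 3 whose log2 level over the 18 combinations of cell kind and library followed Sftpc most closely were Hc, Lyz2 and Lgi3 (Pearson r of 0.965, 0.955 and 0.955, with 14290 genes compared). For Scgb1a1 they were Cyp2f2, Cldn10 and Gpx2 (0.965, 0.952 and 0.948). Within the 10 genes Lamp3 (0.971) and Napsa (0.961) followed Sftpc most closely and Scgb3a2 (0.982) followed Scgb1a1. The 18 profiles share libraries, cells and free RNA, so these values only describe the pattern.

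Genes that act with the surfactant proteins were read from lists. In type 2 cells, 5 of 35 measured genes of surfactant lipid and lamellar bodies were lower and 0 higher in irradiated than non-irradiated wild-type cells. Of all genes measured 7.16% were lower and 1.4% higher. The median log2 ratio of the list was -0.33, beside -0.06 for all genes. With cells weighed equally 3 were lower and the median was 0.02. Fabp5, a fatty acid carrier, measured 474 against 1709 CPM. Lipa, a lysosomal lipase, had 0 UMIs in the irradiated cells against 10.5 CPM in the non-irradiated cells. The irradiated cells held 664227 UMIs in all, so at 10.5 CPM few Lipa UMIs would be seen there. In knockout against irradiated wild-type cells 0 of 32 of these genes were apart, beside 1.93% of all genes lower and 5.93% higher.

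Of 15 measured regulators of type 2 cells, 2 were lower and 0 higher in irradiated than non-irradiated wild-type cells, beside 7.16% and 1.4% of all genes. The 2 were Cebpd at 113 against 254 CPM and Fgfr2, a growth factor receptor, at 119 against 262 CPM. In the second comparison 1 of 13 was lower and 1 higher, beside 1.93% and 5.93% of all genes. Foxa1, a forkhead factor, measured 51.0 against 123 CPM and Nkx2-1 261 against 122 CPM, the latter from 179 and 81 UMIs. In unmixed cells the list had 0 genes higher and 2 lower, beside 3.89% and 3.64% of all genes, and Nkx2-1 did not pass the rule there. Of 18 other type 2 markers 0 were apart in the first comparison, beside the same 7.16% of all genes lower and 1.4% higher. Their median log2 ratio was -0.68, beside -0.06 for all genes, or -0.15, beside 0.07, with cells weighed equally.

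Genes of the transitional alveolar epithelium, a keratin-rich state between type 2 and type 1 cells, were higher in irradiated than non-irradiated wild-type type 2 cells. Of 19 measured, 12 were higher and 1 lower, beside 1.4% and 7.16% of all genes. The median log2 ratio was 1.48, beside -0.06 for all genes. Cldn4, a tight junction gene, measured 135 against 6.23 CPM and Clu, a secreted chaperone gene, 1725 against 150 CPM, and 61.1% and 64.0% of the irradiated UMIs came from 1 cell. With cells weighed equally 8 were higher and 3 lower. In unmixed cells 12 of 17 were higher and 1 lower, beside 2.91% and 3.84% of all genes. Targets of p53 had 9 of 18 genes higher and 0 lower, beside the same 1.4% and 7.16%, and 7 higher with cells weighed equally. Ccng1 measured 229 against 18.2 CPM, Phlda3 188 against 24.2 CPM and Gdf15, a stress cytokine, 465 against 66.8 CPM, found in 11, 7 and 8 of the 21 cells.

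In knockout type 2 cells, type 1 markers were higher than in irradiated wild-type cells. Of 18 measured, 12 were higher and 1 lower, beside 5.93% and 1.93% of all genes. The median log2 ratio was 1.36, beside 0.22 for all genes, and 7 were higher and 0 lower with cells weighed equally. Hopx, a homeobox gene of type 1 cells, measured 369 against 58.7 CPM and was found in 16 of 32 against 6 of 21 cells, and Clic5, a chloride channel gene, 277 against 37.6 CPM in 16 against 8 cells. The top cell gave 39.9% and 53.2% of the knockout UMIs. Of these type 2 cells, 26 of 32 in the knockout and 17 of 21 in the irradiated wild-type library also met the Ager rule, and Ager is itself on this list. Among 14 p53 targets 2 were lower and 0 higher, beside 1.93% and 5.93% of all genes. The 2 were Trp53inp1, at 59.8 CPM in knockout against 191 CPM in irradiated wild-type cells, and Ccng1, at 94.8 against 229 CPM.

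In club cells the list of other secretoglobins and club markers had 16 of 33 genes higher and 2 lower in irradiated than non-irradiated wild-type cells. Of all genes 11.2% were higher and 2.11% lower. The median log2 ratio of the list was 1.00, beside 0.41 for all genes. Retnla, a secreted resistin-like protein gene, measured 6817 against 142 CPM and was found in 24 of 27 against 25 of 65 cells. Ltf, which encodes lactoferrin, measured 918 against 26.9 CPM in 14 against 5 cells. Knockout against irradiated wild-type club cells had 3 of 33 genes of this list higher, beside 0.746% of all genes. The list had 6 lower, a share below the 22.0% of all genes lower. Its median log2 ratio was -0.11 beside -0.60 for all genes. Ltf measured 66.3 against 918 CPM and Bpifa1, an airway defence protein gene, 449 against 3353 CPM in 7 against 9 cells, with 65.4% of the latter UMIs in 1 cell.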

How the data were processed

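The 3 libraries are 10x Genomics single-cell 3' libraries of mouse lung, 1 per group. The deposited files hold UMI counts per gene and barcode, whole numbers that were not normalized; the authors' software is named only by version 3.1.0 in the file header, and the build mm10 comes from the submitters' processing notes. For the aligner, the counting annotation and the barcode filter: not given in the sources used here. Every barcode in the files has at least 500 UMIs.

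Barcodes with at least 250 genes and at most 15% mitochondrial UMIs were kept (84.5%, 81.9% and 87.5%). UMIs were summed over the cells of each rule and divided by all UMIs of those cells. With 1 library per group no test was possible: a gene was called apart by a rule of size (2-fold after adding 5 CPM, at least 30 UMIs in the higher library), tried on simulated counts. Genes named from the 9 lists come from the up to 3 with the largest absolute log2 ratio past that rule per list, comparison and cell kind. Likeness used genes with at least 100 UMIs. The 10 genes, the lists and the rules were chosen with earlier results of these data known, so none of it is independent support. Cells were also weighed equally, thinned to 1000 UMIs, and left out where Scrublet's score was among the top 0.8% per 1000 barcodes, its own threshold not being used (1622, 329 and 893 cells, including 68, 0 and 2 type 2 cells). Positions are from GENCODE on GRCm38, and promoters from RefSeq. Barcodes shared by libraries were kept. The tools were scanpy 1.11.5, matplotlib 3.10.9, pandas 2.3.3, numpy 2.4.6 and scipy 1.17.1 under Python 3.11.15. A gene of the lists that the naming rule picked is not reported here.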

Additional observations from a re-analysis of the deposited data

Results flagged for a closer look

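Opposite directions of the same gene in different cell kinds under the same pair of libraries drew attention for 5 genes; with 1 library a group none of these differences was tested. Sftpd in knockout over irradiated wild-type was at a log2 ratio of 1.40 in type 2 cells and -1.15 in club cells. Scgb1a1 in irradiated over non-irradiated wild-type was at 6.89 in type 2 and -3.47 in T cells, and in knockout over irradiated wild-type at -8.82 in type 2, -1.17 in Ager and 2.75 in T cells. Scgb3a2 in the latter pair was at -5.82 in type 2 and 1.24 in T cells, Sftpc at -5.29 in club and 1.73 in T cells, and Sftpb at -1.63 in club and 1.01 in T cells. The irradiated wild-type cell that met the type 2, club and Ager rules carries the type 2 values of Scgb1a1 and Scgb3a2 and much of the Scgb1a1 value in Ager cells and of the Sftpc and Sftpb values in club cells. In unmixed club cells Sftpc was at -1.85 and Sftpb at -0.59.

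Barcodes that failed the cell filter, which no comparison used, held the 10 genes together at 26241 CPM in the non-irradiated, 4408 in the irradiated wild-type and 7273 in the knockout library.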

How the results depend on the processing

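Of 18 alternative settings, 15 were planned and 3 (unmixed cells, cells of at least 10000 UMIs, and both) were added after the data were seen. Of the counts of genes apart, 113 stayed within 1.5 times the main count and 31 did not. For irradiated over non-irradiated wild-type, type 2 cells gave 2 genes apart, both higher; single-gate cells, of which the irradiated library had 3, gave 5, all lower, gates without the 10 genes 4 (3 lower), and unmixed and unmixed deep cells 1 each, lower. Club cells gave 3, all lower, but 5 (3 lower) in female-type cells and 1, higher, in unmixed and in unmixed deep cells. Ager cells gave 0, but 2 without likely doublets and with CPM outside the 10 genes, 8 in single-gate, unmixed and unmixed deep cells, 1 with stricter gates and with the stricter cell filter, 3 with median-of-ratios scaling, 4 (2 lower) with cells weighed equally and 6 (4 lower) with thinned cells; the rest were all lower. For knockout over irradiated wild-type, type 2 cells gave 3 (2 lower), but 0 with gates without the 10 genes, 1, lower, with thinned cells and 1, higher, with gates by share, unmixed and unmixed deep cells. Club cells gave 5, but 2 in single-gate and 1 in thinned cells, all lower. Ager cells gave 1, lower, but 0 with looser gates and 2 (1 lower) in female-type cells. T cells gave 5, all higher, but 3, higher, with 20 CPM added and in single-gate, equally weighed, thinned and unmixed cells. Some of these settings held fewer cells or UMIs than the main one and others did not, and the cause of the changes was not tested.

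The sign of a gene counted as apart turned in 20 values of single genes, while 674 values stayed within the counting interval of the main ratio and 746 left it. In type 2 cells, irradiated over non-irradiated wild-type, Scgb1a1 was at -2.59 (single-gate), -2.43 (gates by share), -1.46 (unmixed) and -1.23 (unmixed deep), and Scgb3a2 at -2.69, -1.68, -1.41 and -1.03. In knockout over irradiated wild-type Scgb1a1 was at 2.02, 0.48, 0.61 and 0.61, and 0.0263 with gates without the 10 genes, and Scgb3a2 at 2.10, 1.30, 1.40 and 1.46. Scgb1a1 in Ager cells of that pair was at 0.23 in unmixed deep cells. Napsa in club cells, irradiated over non-irradiated wild-type, was at 0.36 in unmixed and 0.36 in unmixed deep cells. Sftpd in knockout over irradiated wild-type type 2 cells stayed higher in 18 of 18 settings (log2 ratio 0.85 to 1.76) and past 2-fold in 15. No paired analysis was possible because each group is 1 library, and for the same reason no replicate could be left out. With 21 to 32 type 2 cells in the irradiated libraries, 1 cell can give over 30% of a gene's UMIs, which limits every level there.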

Other observations

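In Ager cells, 14 of 19 measured genes of the transitional epithelium were higher and 0 lower in irradiated than non-irradiated wild-type cells. Of all genes 3.04% were higher and 5.72% lower. The median log2 ratio of the list was 1.88 beside 0.14 for all genes, and 12 were higher with cells weighed equally. Clu measured 2394 against 159 CPM and was found in 31 of 37 against 165 of 245 cells. Of 19 p53 targets 13 were higher and 0 lower, beside the same 3.04% and 5.72%, and 14 higher with cells weighed equally. Ccng1 measured 289 against 18.6 CPM and Phlda3 276 against 20.5 CPM.

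Type 1 markers in Ager cells were higher in the knockout than in the irradiated wild-type library for 11 of 20 genes and lower for 0. Of all genes 3.44% were higher and 1.34% lower. The median log2 ratio of the list was 1.18, beside 0.14 for all genes, and 4 genes were higher with cells weighed equally. Rtkn2 measured 77.2 against 1.08 CPM, from 12 of 53 against 1 of 37 cells, and Akap5 151 against 32.5 CPM. Fabp5, a fatty acid carrier, stood at 1347, 288 and 612 CPM in the 3 libraries. With 1 library per group none of these differences could be tested. In Ager cells endothelial markers together stood at 603, 72.5 and 140 CPM and fibroblast markers at 709, 61.7 and 219 CPM, and their part in these differences was not tested.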
